A study of Arabidopsis thaliana with 2 samples.

Results

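The genes described here are the U-box ubiquitin ligase genes of Arabidopsis thaliana that the array describes as U-box domain-containing, among them PUB54. The rule took every probe, other than control probes, whose description on the array of replicate 1 holds that phrase, and matched it to replicate 2 by probe name. It found 42 probes of 42 loci among 21500 probes, and all 42 were on both arrays. The rule itself uses no measured value, but the family was selected on the ratio of PUB54, one of the highest in these data. The ratio of PUB54 is therefore given as a description, with no test.

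Roots of 10-day-old hydroponic seedlings of the Col-0 accession were kept for 6 h in solution with 10 µM AlCl3 at pH 5.0 (aluminium) or without AlCl3 at the same pH (control). The labels give a growth pH of 5.5 for both arrays, with MGRL at 2% and CaCl2 at 200 µM. RNA of both treatments was hybridised together on a 2-colour Agilent array, and there were 2 such arrays, called biological replicates in the labels. Dyes were exchanged between the arrays, with aluminium RNA in Cy3 first and in Cy5 on the second, so dye, array layout and replicate cannot be told apart. Each value is either a normalised signal of one channel (log2 intensity) or a log2 ratio of aluminium over control, given with the SD over the arrays (n = 2). Each tested gene has a p from limma, adjusted over all 19194 genes by Benjamini and Hochberg's method, and is called where this adjusted p is under 0.05. Calls rest on the ratio within each array, not on whether channel signals of the treatments overlap. The share of all genes whose channel signals do not overlap is not given here.

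Ubiquitin is passed from an activating enzyme (E1) to a conjugating enzyme (E2) and, with the help of a ligase (E3), to a target protein, which is often then degraded by the 26S proteasome. The U-box is a small domain with the fold of a RING finger, held together without zinc, that binds the E2. In plants the family is large, and many of its proteins carry armadillo repeats that bind other proteins. Several are known from immune signalling, abscisic acid responses and protein quality control.

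Of the 42 members 41 were well above background in all 4 channels, and none was saturated. By channel, 94.4% to 96.4% of all probes passed the same mark, with a median signal of 4.60 to 8.62 times the local background. PUB15 was below that mark in both channels of replicate 1 and was left out of the test, so 41 members were tested. On replicate 2, where it was above background, its log2 ratio was 0.26. Of the 10 root markers listed 9 were on the array, all well above background in all 4 channels, but so were all 6 shoot and photosynthesis markers found there, such as RBCS1A. Among the 9 root markers 7 were called lower and 1 higher in aluminium-treated roots, with log2 ratios from -2.30 (SKOR, a potassium channel of the stele) to 0.84 (NRT2.1, a nitrate transporter), while the 6 shoot markers ranged from -0.12 to 0.11 and none was called. The root hair genes RSL4 and EXPA7 (-1.47 and -1.73) and the endodermis gene CASP1 (-1.74) were among those lower, and their part in the results for U-box genes was not tested. In whole roots a lower signal cannot be assigned to fewer cells of a type or to less RNA per cell.

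Over the family 6 genes were called higher and 3 lower in aluminium-treated roots, which is 22.0% of the 41 tested. The same call was made for 14.7% of all genes, 8.25% higher and 6.48% lower. Without PUB54 the count is 5 higher and 3 lower. The median over the family was 0.10, with array medians of 0.07 and 0.14, against 0.00 over all genes. The quartiles of the family were -0.18 and 0.33, against -0.15 and 0.16 over all genes. Thus members lay on both sides of 0, and the median distance from 0 was 0.26 on the log2 scale for the family and 0.16 for all genes. The sign was the same on both arrays for 37 of 41 members, against 71.4% of all genes. At least 2-fold higher on both arrays were 3 members, PUB54, AT5G67340 and AT3G61390, and no member was 2-fold lower on both, against 1.64% and 0.891% of all genes. Without PUB54 the members 2-fold higher on both arrays are 2 of 40. The call counts depended on how ratios were made: with the scanner software's ratios limma called 3 members higher and 0 lower (12 and 6 at an unadjusted p under 0.05), and with the series matrix values 0 of 37 (10 higher and 5 lower at an unadjusted p under 0.05). Calls fell over all genes too, to 170 higher and 118 lower of 19194 with the scanner software's ratios. With the series matrix values they fell to 0 of 18659.

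**Figure D1:**
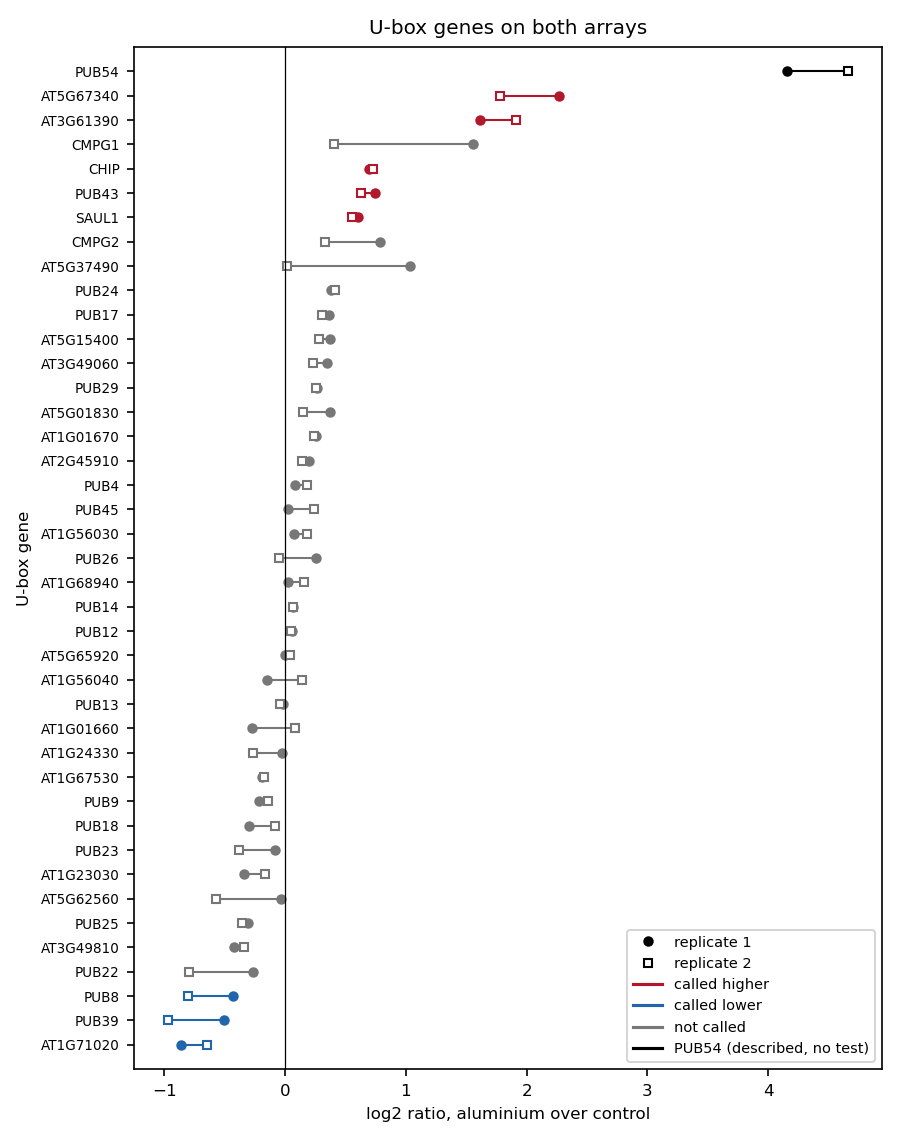
Log2 ratio of aluminium over control (x axis) for each of the 41 tested U-box genes (rows), with a filled circle for replicate 1, an open square for replicate 2 and a line between them; colours give the limma call, and PUB54 is drawn in black. PUB54 lies at 4.16 and 4.66, AT5G67340 and AT3G61390 follow between 1.61 and 2.27, and the 3 genes called lower lie between -0.97 and -0.43.

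PUB54 (AT1G01680) is described on the array by its U-box alone. Its normalised signal was 12.34 and 12.84 in aluminium channels, against 8.19 and 8.18 in control channels. Both aluminium values lie far above both control values, and the control values of the arrays nearly coincide. The mean signals before correction were 4679 and 7370 intensity units in aluminium channels, against 536 and 253 in control channels, over a local background between 58 and 69. The log2 ratio was 4.16 on replicate 1 and 4.66 on replicate 2, a mean of 4.41 ± 0.36, or 21.2-fold. By mean ratio PUB54 ranked 2 of the 19194 genes. Under the other processing settings its ratio stayed between 4.16 and 4.81.

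The probe of PUB54 is listed on chromosome 1 at chr1:246429-246488 in the file of replicate 1, which names no genome build. The next 2 U-box members are its immediate neighbours, with probes at chr1:242955-243014 for AT1G01670 and chr1:240142-240201 for AT1G01660, and the order of the RefSeq gene table (assembly TAIR10.1) puts the 3 genes side by side. Coordinates run in descending order for all 3 probes, that is, on the same strand. AT1G01670 had a signal of 8.17 and 8.997 in aluminium channels, against 7.91 and 8.76 in control channels, with log2 ratios of 0.26 and 0.23. The ratio was nearly the same on both arrays, with a mean of 0.25 ± 0.015, and was not called (adjusted p = 0.151). The signal itself was higher on replicate 2 in both channels. AT1G01660 had log2 ratios of -0.28 and 0.08, of opposite sign (adjusted p = 0.666), and a mean of -0.10 that was -0.30 in the series matrix. Neither neighbour in the family thus passed the test beside PUB54. The probe sequences were not used here, so whether the 3 probes tell these genes apart was not tested.

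Farther out, SPPL4, described by a protease-associated domain and lying 3 genes before PUB54, was called higher at 0.77 ± 0.073 (adjusted p = 0.0111), though not from scanner or series matrix ratios. AT1G01640, ROPGEF2 and AT1G01710, within 4 genes of PUB54, were not called, with ratios of -0.15 ± 0.053, -0.17 ± 0.25 and 0.21 ± 0.052. The loci PRD3 and TRM33, next to PUB54 on its other side, had no probe with their locus.

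**Figure D2:**
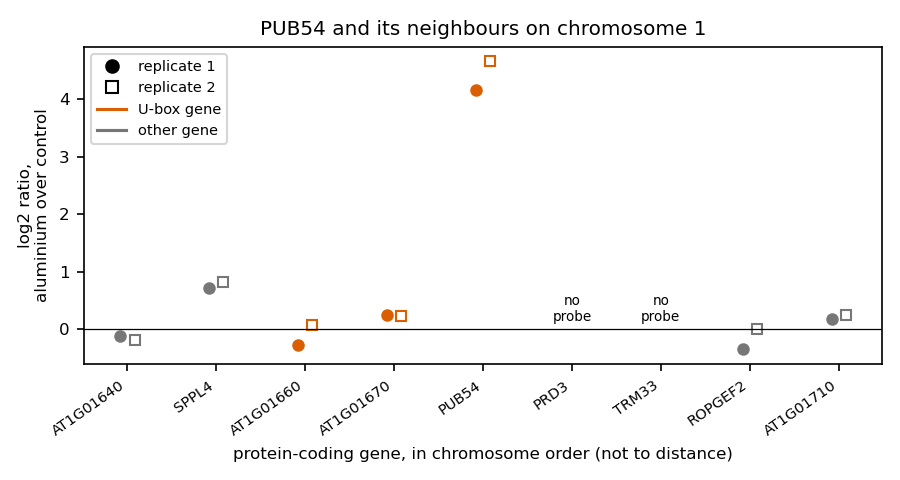
Log2 ratio of aluminium over control (y axis) for PUB54 and the 4 protein-coding genes on either side of it in chromosome order (x axis, not to distance), with circles for replicate 1, squares for replicate 2 and U-box genes in orange. PUB54 lies above 4 on both arrays, whereas each neighbour with a probe lies between -0.34 and 0.82.

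Other members of the family lie side by side too. CHIP and PUB9 are neighbours on chromosome 3, and their probes are listed on opposite strands. CHIP, a co-chaperone with a tetratricopeptide repeat that binds Hsp70 and Hsp90 and passes their clients to degradation, had a signal of 9.36 and 9.57 in aluminium channels, against 8.67 and 8.84 in control channels. Its groups do not overlap, and it was called higher at 0.71 ± 0.026 (adjusted p = 0.0128). PUB9, an armadillo-repeat ligase known from abscisic acid responses, had -0.18 ± 0.054 and was not called (adjusted p = 0.267). AT1G56030, described with an MIF4G domain, and AT1G56040 are adjacent on chromosome 1, with ratios of 0.13 ± 0.072 and -0.00 ± 0.21, neither called.

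Among the 19 members with armadillo repeats in their description 18 were tested, of which 3 were called higher and 2 lower, or 27.8%, against 14.7% of all genes. The highest was AT5G67340, with a signal of 9.68 and 10.32 in aluminium channels, against 7.41 and 8.54 in control channels. Both aluminium values exceed both control values, while the control signal itself differed by more than 1 log2 unit between the arrays. Its ratios of 2.27 and 1.78 average 2.03 ± 0.35, or 4.07-fold (adjusted p = 0.00383). PUB43 had a signal of 9.35 and 9.499 in aluminium channels, against 8.61 and 8.87 in control channels, and was called higher at 0.68 ± 0.078 (adjusted p = 0.0149). SAUL1, a ligase whose loss brings on premature senescence, had 9.60 and 9.70 in aluminium channels, against 8.995 and 9.15 in control channels. The groups of both genes stand apart, and SAUL1 was called higher at 0.58 ± 0.034 (adjusted p = 0.0205).

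The armadillo members called lower were PUB39 and AT1G71020. PUB39 had a signal of 8.65 on both arrays in aluminium channels, against 9.16 and 9.62 in control channels, and fell by 0.74 on the log2 scale (SD 0.33, adjusted p = 0.0304). AT1G71020 had 7.98 and 7.27 in aluminium channels, against 8.84 and 7.92 in control channels. Its signal differed between the arrays, so that the groups overlap, but on each array the aluminium channel was lower, with ratios of -0.87 and -0.64 and a mean of -0.76 ± 0.16 (adjusted p = 0.0146). With the series matrix values that ratio was -1.15, which is 1.53 times as far from 0, and was not called (adjusted p = 0.0665).

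The 21 members whose description names neither armadillo repeats nor a kinase held PUB54 and, as called genes, CHIP, AT3G61390 and PUB8. With PUB54 included, 3 of the 21 were called higher and 1 lower, or 19.0%, against 14.7% of all genes. Apart from PUB54, on which the family was selected, 2 were called higher and 1 lower, a share closer to that 14.7%. AT3G61390 had a signal of 10.23 and 10.55 in aluminium channels, against 8.62 and 8.64 in control channels. The values agree closely within each treatment and differ widely between them, and the gene was called higher at 1.76 ± 0.21, or 3.40-fold (adjusted p = 0.00329). PUB8 had 9.08 and 8.40 in aluminium channels, against 9.51 and 9.20 in control channels. All aluminium values are below all control values, and PUB8 was called lower at -0.62 ± 0.27 (adjusted p = 0.0359). Neither of the 2 members described with a protein kinase domain was called, AT3G49060 at 0.29 ± 0.079 and AT2G45910 at 0.17 ± 0.036.

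Calls of the smaller ratios did not hold in every setting. Those of CHIP, PUB43, SAUL1 and PUB8 ended with median centring in place of loess (adjusted p = 0.0505, 0.0654, 0.158 and 0.0953), and those of these 4, PUB39 and AT1G71020 ended with the scanner software's ratios (adjusted p between 0.0576 and 0.113) and with the series matrix values (between 0.0665 and 0.128). Each ratio kept its sign. With median centring the adjusted p followed the size of the mean ratio, not the spread over the arrays. UBC3 and EXO70B2, described below, were both at 0.677 there, with an adjusted p of 0.0727 each. Their SDs after loess were 0.14 and 0.0069. CHIP had a ratio of 0.71 in both settings. From the series matrix values limma called 0 of 18659 genes. AT5G67340 and AT3G61390 were called with median centring (adjusted p = 1.41e-14 and 6.26e-11). With the scanner software's ratios they were called just under the threshold (adjusted p = 0.049 and 0.048), and they have no row in the series matrix.

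**Figure D3:**
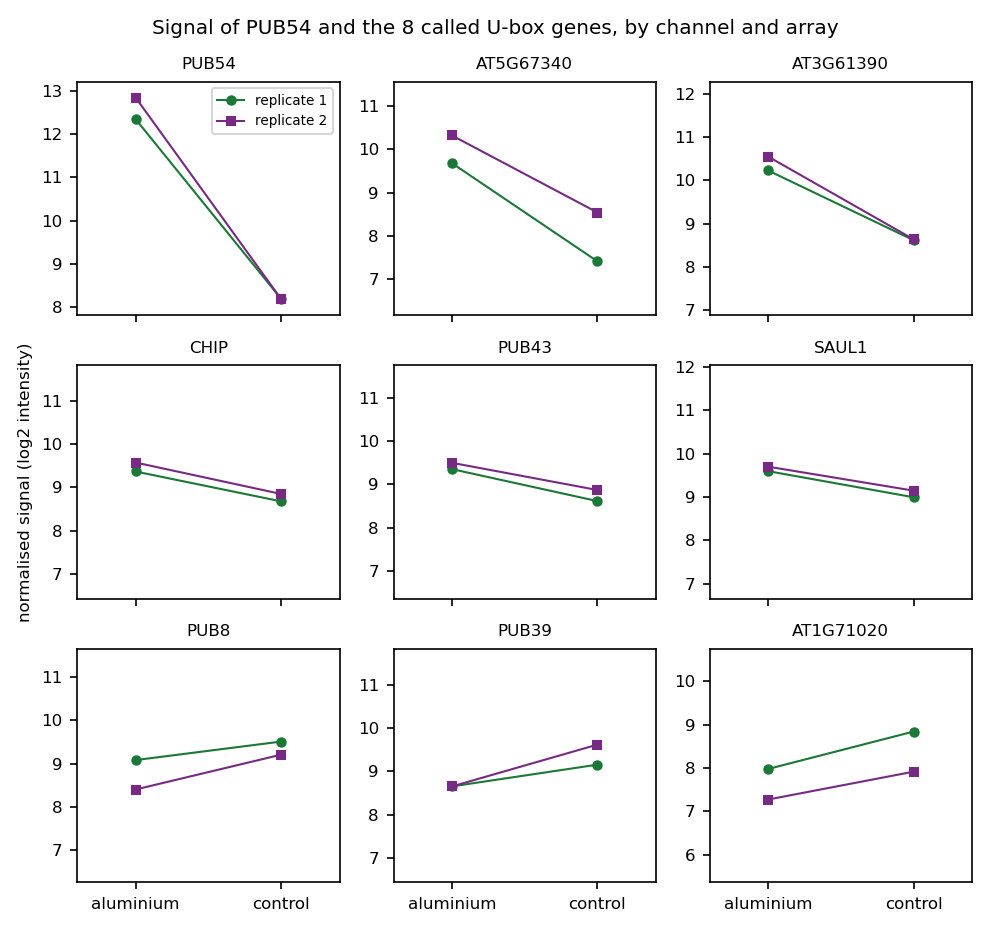
Normalised signal in log2 intensity (y axis) in the aluminium and control channels (x axis) of PUB54 and the 8 called U-box genes, 1 panel per gene with the same span of the y axis; lines join the channels of 1 array, circles for replicate 1 and squares for replicate 2. PUB54 lies over 4 units higher on the aluminium side on both arrays, and PUB8, PUB39 and AT1G71020 lie lower on that side.

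The ligases of plant immunity are the longest of the lists of U-box genes by role. Of 15 listed 2 were called higher, AT5G67340 and SAUL1, and 0 lower by limma (5 higher and 2 lower at an unadjusted p under 0.05), or 13.3%, against 14.7% of all genes. PUB22, PUB23 and PUB24 act together to dampen responses to microbial patterns. PUB22 had a signal of 10.06 and 9.99 in aluminium channels, against 10.33 and 10.79 in control channels, with ratios of -0.27 and -0.80 (adjusted p = 0.0797). PUB23 had -0.23 ± 0.21 (adjusted p = 0.243) and PUB24 0.39 ± 0.023 (adjusted p = 0.0515). None of these was called, and the sign of PUB24 is opposite to that of the other two on both arrays. PUB24 was called only when probes had to be well above background in every channel (adjusted p = 0.0475), and its ratio was 0.66 in the series matrix.

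PUB12 and PUB13, which mark the flagellin receptor FLS2 for degradation, had 0.05 ± 0.0032 and -0.03 ± 0.016, close to 0 on both arrays. PUB25 and PUB26 act on the receptor-linked kinase BIK1. PUB25 had -0.33 ± 0.039 (adjusted p = 0.0779) and PUB26 had 0.25 and -0.05, of opposite sign. PUB17, needed for cell death in defence, had 0.33 ± 0.040 (adjusted p = 0.0777), and PUB4, which acts in root meristem signalling as well, had 0.13 ± 0.072 (adjusted p = 0.420). MAC3A and MAC3B, U-box proteins of a splicing complex that the array describes by their WD-40 repeats and which are therefore not among the 42, had 0.01 ± 0.16 and -0.21 ± 0.27.

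CMPG1 resembles a parsley gene that is switched on early by a fungal elicitor. It had a signal of 10.16 and 9.51 in aluminium channels, against 8.60 and 9.11 in control channels. Its ratio was 1.56 on replicate 1 and 0.40 on replicate 2, a mean of 0.98 ± 0.82 (adjusted p = 0.0781), and only median centring brought it past the threshold (adjusted p = 0.00181). The mean there was 0.98 as well, and that adjusted p followed the mean, not the distance between the arrays. AT5G37490, described as similar to CMPG1, had a dim probe, with mean signals of 125 to 194 over a local background of 58 to 76. Its ratios were 1.03 and 0.02 (adjusted p = 0.227). Its mean was 0.52, against 0.94 from the scanner software and 1.23 in the series matrix, neither called. CMPG1 thus has the fourth highest mean of the family, and both genes were higher on replicate 1 by more than their mean.

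In all, 13 members have CMPG1 in their description, a group formed after the values had been seen, and 12 were tested. Their array medians were 0.26 and 0.03. The ratio was higher on replicate 1 for 10 of these 12, against 50.5% of all genes and 24 of the 41 tested members. Dye, layout and replicate cannot be told apart here.

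**Figure D4:**
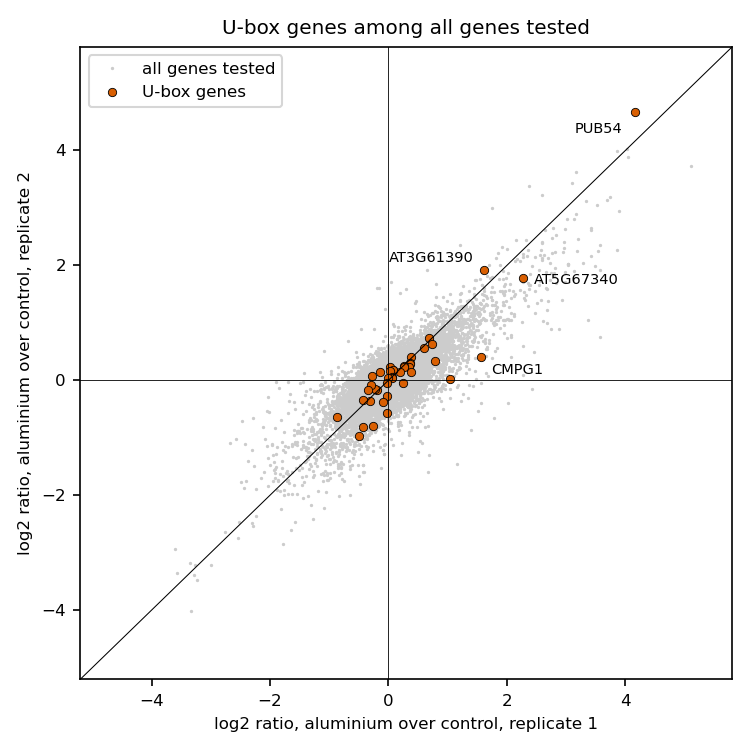
Log2 ratio of aluminium over control on replicate 1 (x axis) and replicate 2 (y axis) for all 19194 genes tested (grey) and the 41 tested U-box genes (orange), with the line of equal ratios. PUB54 lies at the upper right end of the cloud, AT5G67340 and AT3G61390 lie near the line, and CMPG1 lies below it at 1.56 and 0.40.

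Of the ligases known from abscisic acid, drought, salt or cold, 10 of 13 listed were on the array and tested, with 2 called higher (CHIP and SAUL1) and 0 lower by limma (2 higher and 3 lower at an unadjusted p under 0.05). These 2 of 10 compare with 14.7% of all genes called. The group median was -0.21, and 7 of the 10 were negative on both arrays, against 6774 of 19194 genes. PUB18 had -0.19 ± 0.15, AT1G23030 -0.25 ± 0.12 and AT3G49810 -0.38 ± 0.055 (adjusted p = 0.0572), none of them called. In the list of protein quality control and splicing 1 of 5 was called, CHIP, a share near the 14.7% of all genes for so short a list. AT5G15400, listed in RefSeq also as MUSE3 for its effect on immune receptor levels, had 0.32 ± 0.066 (adjusted p = 0.0869), and PUB49, a cyclophilin with a U-box that the array does not describe as one, had 0.09 ± 0.051.

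The 10 tested members that were neither called nor in a list by role or position, nor described as kinases, ranged from -0.30 to 0.55. Of these, 5 are named here, chosen after their values were seen. The highest was CMPG2, with 0.78 on replicate 1 and 0.33 on replicate 2 (adjusted p = 0.0584). The lowest was AT5G62560, with -0.03 and -0.57, so that its value rests on replicate 2. AT5G01830, described with armadillo repeats and a U-box but listed under the symbol SAUR21 in RefSeq, had 0.37 and 0.14. PUB29 (0.26 ± 0.010) and PUB14 (0.07 ± 0.0012) had nearly the same ratio on both arrays.

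The enzymes upstream of the ligases moved in both directions. Of 31 listed E1 and E2 genes 30 were tested, with 4 called higher and 2 lower. UBC27 had 0.76 ± 0.081 (adjusted p = 0.0117), UBC3 0.64 ± 0.14 (adjusted p = 0.0202), UBC33 0.45 ± 0.031 (adjusted p = 0.0375) and UBC34 0.41 ± 0.0095 (adjusted p = 0.0463). UBC8, of the E2 group that works with many RING and U-box ligases in test-tube assays, fell by 0.75 (SD 0.084, adjusted p = 0.0123). UBC36, of an E2 pair that builds a type of ubiquitin chain used in signalling and DNA repair, fell by 0.59 (SD 0.039, adjusted p = 0.0192). Its near-identical partner UBC35 had -0.11 ± 0.0027 (adjusted p = 0.474), and the 2 probes may share targets. The uncalled genes with the smallest p were UBC32 (0.42 ± 0.094), UBC6 (0.44 ± 0.24), UBC30 (0.52 ± 0.38) and UBC5 (-0.32 ± 0.069). The list median was -0.03. The share called over all genes was 14.7%, against 6 of 30 in the list. UBC3, UBC33, UBC34 and UBC36 were not called with median centring (adjusted p = 0.0727, 0.345, 0.408 and 0.156), and UBC32 was called with no background correction (adjusted p = 0.0439) and with probes above background in every channel (adjusted p = 0.0469). Limma called 0 of the list from scanner or series matrix ratios (7 higher and 3 lower at an unadjusted p under 0.05 with each).

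Among 17 listed partners and substrates of U-box ligases 6 were called higher and 1 lower, with a list median of 0.31. The G protein gene XLG2 had a log2 ratio of 1.09 ± 0.0077 (adjusted p = 0.00512), and the phosphatase gene ABI1, a brake on abscisic acid signalling, 0.96 ± 0.30 (adjusted p = 0.0145). EXO70B2 and EXO70B1, exocyst subunits and targets of U-box ligases, had 0.65 ± 0.0069 and 0.43 ± 0.10 (adjusted p = 0.0155 and 0.0490). The chitin receptor gene CERK1 had 0.50 ± 0.10 (adjusted p = 0.0330) and BIK1 0.53 ± 0.25 (adjusted p = 0.0483). FLS2, the receptor for bacterial flagellin, was the gene called lower at -0.58 ± 0.096 (adjusted p = 0.0231). Its probe was dim, and its ratio was -1.87 from the scanner software and -1.39 in the series matrix, the second not called (adjusted p = 0.0944). Of those not called, the smallest p-values were those of MYB15 (1.67 and 0.58 on the arrays, adjusted p = 0.0501), VAR1 (-0.38 ± 0.11), MYC2 (-0.47 ± 0.29) and FTSH1 (-0.33 ± 0.00077). The 7 calls are 41.2% of the list, against 14.7% of all genes. Because the list was chosen with earlier results of these data known, this share is a description and was not tested. MYB15 was called with median centring (adjusted p = 0.000162), with no filter on dim probes (adjusted p = 0.0470) and with probes above background in every channel (adjusted p = 0.0468). The first of these values followed the mean ratio, not the distance between the arrays. BIK1 and EXO70B1 were not called when probes without a shared locus were kept (adjusted p = 0.0506 for each). With median centring 3 were called higher, XLG2, ABI1 and MYB15, and 0 lower, so that EXO70B2, EXO70B1, CERK1, BIK1 and FLS2 lost their call (adjusted p = 0.0727, 0.435, 0.228, 0.212 and 0.125), and with the scanner software's ratios 0 higher and 1 lower (8 and 4 at an unadjusted p under 0.05, limma).

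Beside other families of the ubiquitin system, again taken from the array's descriptions, the share of called genes was 22.0% for U-box genes with PUB54 (8 of 40 without it), 20.9% for 43 ubiquitin-conjugating enzymes, 16.1% for 31 genes of the 26S proteasome, 10.7% for 289 RING finger genes and 6.54% for 367 F-box genes. RING finger genes include the largest group of plant ubiquitin ligases, and F-box proteins are the target-binding part of another. Their medians were 0.04 and 0.02, against 0.10 for U-box genes. Apart from PUB54, on which the family was selected, the highest ratio was 2.03 among U-box genes, 1.53 among RING finger genes and 2.52 among F-box genes. Over all genes 14.7% were called. The difference between families was not tested.

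**Figure D5:**
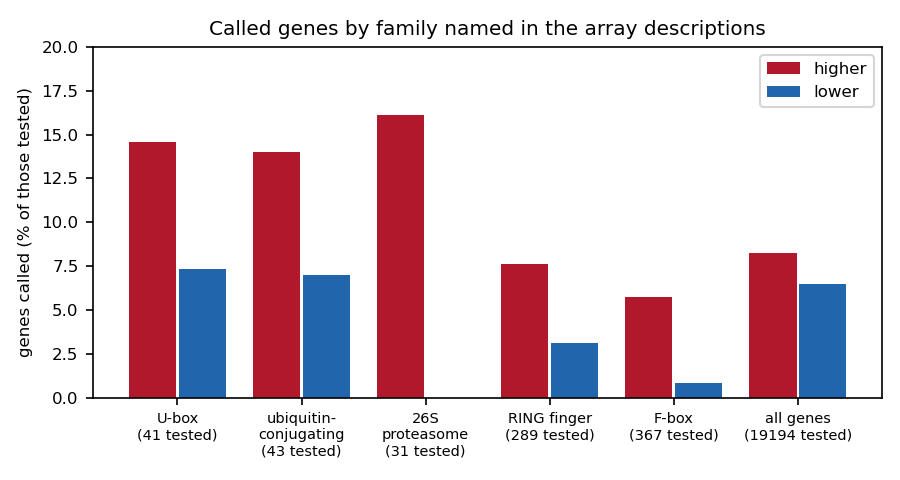
Share of tested genes called higher (red) and lower (blue) in percent (y axis) for each family named in the array's descriptions and for all genes (x axis, with the number tested). The U-box bars, PUB54 included, stand at 14.6% and 7.32%, against 8.25% and 6.48% for all genes. Without PUB54 the U-box shares are 12.5% and 7.5%.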

How the data were processed

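The deposited scanner files hold spot intensity values per channel, not normalized, made with Feature Extraction 8.1.1.1 (replicate 1) and 7.1.1 (replicate 2) per the file headers, a version other than the 9.5.1.1 of the submitters' processing notes. Each deposited file also gives a log10 ratio (Cy5 divided by Cy3) that the software had dye-normalized, per the file headers. For 20346 probes the authors' series matrix adds log2 values, in the direction of aluminium over control by their match to the scanner ratios (r = 0.998 and 0.887), with medians of -0.0103 and -0.0112. How they were normalized and centred is not given in the sources used here.

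Mean signals were corrected with normexp (offset 50) and normalized by loess within arrays, control spots at weight 0, in limma 3.58.1 under R 4.3.3, and ratios were turned to aluminium over control. Channel signals were further scaled between arrays (Aquantile). Of 21500 probes 108 carried an outlier mark, 1151 others were below background in both channels of an array, and 1047 had no locus shared by both layouts. The 19194 genes left were tested against 0, two-sided (lmFit and eBayes, 1 residual degree of freedom, prior 4.06). With 2 arrays precision is limited by their number.

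All 42 members were found in the RefSeq table of TAIR10.1, and 23 are named by its symbol, the rest by locus. Members and lists were chosen with earlier results of these data known. Named were members that were called, that were at least 2-fold on both arrays or that stand in the lists by role, position or kinase domain, and in the E1/E2 and partner lists all called genes and the 4 others with the smallest p. A few further genes, among them CMPG2, AT5G62560, AT5G01830, PUB29 and PUB14, were named after their values were seen. Alternatives covered background correction, centring, the source of the ratio, dim probes, loci and leaving out an array.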

Additional observations from a re-analysis of the deposited data

How the results depend on the processing

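Counts of called genes depended most on the source of the ratio. In limma, the scanner software's ratios called 3 U-box genes higher and 0 lower, and the series matrix values 0 and 0, against 6 and 3 as reported. For the E1 and E2 list (4 and 2 as reported) both sources gave 0 and 0, with 7 higher and 3 lower genes at an unadjusted p under 0.05 for each. Median centring, where the adjusted p followed the size of the ratio, gave 1 and 1. For partners and substrates (6 and 1 as reported) the scanner software's ratios gave 0 higher, the series matrix values 0 and 0 (7 and 4 at an unadjusted p under 0.05), and median centring 3 and 0. Probes well above background in every channel gave 0 lower, because the probe of FLS2 did not pass there. Over all genes the scanner software's ratios gave 170 higher and 118 lower calls and the series matrix values 0 (2552 and 2521 at an unadjusted p under 0.05). Where a cause is not named, the cause was not tested. The PUB54 ratio was 4.81 with the series matrix values, and leaving out 1 array gave 4.16 to 4.66. The median of the family was 0.07 to 0.14 when 1 array was left out. Without 1 array no test has residual degrees of freedom, so no counts were made. No called gene changed sign. No paired analysis was possible because no block can be added: the ratio within each array already pairs the treatments, and the fit reported is that paired fit.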

Other observations

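Genes of the 26S proteasome, the complex that degrades many ubiquitin-marked proteins, had a median log2 ratio of 0.20 in aluminium-treated over control roots. Of 31 genes with that name in their description 5 were called higher and 0 lower by limma (12 higher and 0 lower at an unadjusted p under 0.05), against 8.25% and 6.48% of all genes. The share called, 16.1%, is near the 14.7% of all genes, and 24 of the 31 had a positive ratio on both arrays, against 6937 of 19194 genes. The 5 called genes, named after their values had been seen, were AT1G75990 (1.00 ± 0.019) and EMB2719 (0.45 ± 0.089), both described as the lid subunit RPN3, AT5G20000 (0.75 ± 0.32) and RPT2a (0.41 ± 0.011), described as ATPase subunits, and AT1G04810 (0.62 ± 0.067), described as a regulatory subunit. Near-identical subunit copies may share probe signal. With median centring 2 were called higher, and with the scanner software's ratios and the series matrix values 0 were (9 and 8 at an unadjusted p under 0.05, limma), while the family median stayed between 0.19 and 0.21 under the 7 alternatives.

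Among RING finger genes 22 were called higher and 9 lower of 289, and among F-box genes 21 higher and 3 lower of 367, against 8.25% and 6.48% of all genes. The scanner software's ratios gave 0 and 1 RING finger genes (45 and 21 at an unadjusted p under 0.05, limma) and 2 and 1 F-box genes, and the series matrix values 0 for both (43 and 23, and 36 and 18, at an unadjusted p under 0.05).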
